A study of Mus musculus with 20 samples.

Results

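Chromatin recovered with an antibody to total H3 was set against whole cell extract (WCE) of the same cells, in embryonic stem (ES) cells and in liver of the mouse. The comparison uses 4 of the series' 20 libraries, namely ES H3, ES WCE, liver H3 and liver WCE, with 1 library each. They were chosen by their labels, and they were read over all 4924844 bins of 500 bp on chromosomes 1 to 19. The series mapped chromatin marks, mainly H3K4me1 and H3K27ac, and used H3 or WCE as the background against which enrichment was set. The ES cells were V6.5 (C57BL/6-129) cells maintained on irradiated mouse embryonic fibroblasts (MEFs), and their titles spell the strain 129JAE-C57/B6 for H3 and 129JAE-C56/B6 for WCE. ES cells for H3 had been grown for 1 passage off the feeder cells, and those for WCE for 2 passages. The liver was labelled perfused whole liver and was dissociated, strained and washed, so it holds all cell types that pass through that preparation. Both H3 libraries used the antibody Abcam AB1791, and both WCE libraries list no antibody, although the protocol field of the ES extract repeats the immunoprecipitation text. Apart from ES H3K4me1, no group used here carried a mutation or a treatment. The ES H3K4me1 level, which sets the bins with H3K4me1 alone, is a mean of 3 libraries. Of these, 1 is of the 129JAE-C57/B6 strain and 1 of that strain with a dox inducible transgene. The other is of inbred C57/B6 cells. With 1 library a side, no difference below has a replicate check or a test. Cell type and library cannot be told apart in any difference between ES cells and liver.

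Nucleosomes wrap DNA around histones, and H3 is a core histone of each of them, so an immunoprecipitation of total H3 recovers nucleosomal DNA wherever it lies. The extract is the sheared chromatin before any antibody, and its read density varies with copy number, with how readily chromatin shears and amplifies, and with whether reads can be placed. Promoters and enhancers in use are known to hold fewer or less stable nucleosomes and to shear more readily than other chromatin. H3K4me3 is a mark of active promoters, H3K27ac of active promoters and enhancers, H3K4me1 of enhancers, and p300 is an acetyltransferase found at enhancers.

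After each position and strand was counted once, chromosomes 1 to 19 held 9382196 reads of ES H3 and 6953421 of ES WCE. Liver had 4283500 H3 reads and 3930980 WCE reads. The average bin thus held 1.91 H3 reads and 1.41 WCE reads in ES cells, and 0.870 and 0.798 in liver. Single bins are therefore weakly measured, and the comparison rests on sums over many bins. Repeats of a position made up 1.48% of ES H3 reads against 8.91% of ES WCE reads, and 1.49% of liver H3 reads against 14.3% of liver WCE reads. Levels are in RPM per kb, where RPM scales each library to its distinct reads on these chromosomes, and a bin belongs to a class where the mark of the same cells reaches 4 (H3K4me3), 2 (H3K27ac) or 3 RPM per kb (p300, ES cells only). Unmarked bins lie below 25% of each of these thresholds and hold at least 2 reads in the MEF H3 and MEF H3K4me1 libraries, which set no class, so that reads can be placed there. Bins of a class had no such minimum, and 90.55 to 96.84% of the bins of each class met it. Intervals are exact 95% intervals for counting error only, and the range over the 19 autosomes is given as a description of how even a value is along the genome.

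H3 was below extract in each of the 5 classes of active site, 3 in ES cells and 2 in liver. At 44517 ES H3K4me3 bins the level was 0.449 RPM per kb of H3 against 0.801 RPM per kb of WCE, a ratio of 0.560 (0.555 to 0.565), with 0.506 to 0.675 over the autosomes. At 62380 liver H3K4me3 bins the level was 0.538 RPM per kb of H3 against 0.937 RPM per kb of WCE, a ratio of 0.575 (0.569 to 0.580), with 0.492 to 0.604 over the autosomes. Active promoters, as far as H3K4me3 marks them, thus had close to the same ratio in both.

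H3K27ac bins were less low, and p300 bins were as low as H3K4me3 bins. At 172380 ES H3K27ac bins H3 stood at 0.609 and WCE at 0.862 RPM per kb, a ratio of 0.706 (0.704 to 0.709). At 169527 liver H3K27ac bins H3 stood at 0.617 and WCE at 0.853 RPM per kb, a ratio of 0.723 (0.719 to 0.727). At 52237 ES p300 bins H3 stood at 0.513 and WCE at 0.905 RPM per kb, a ratio of 0.566 (0.562 to 0.571). Each of these 5 ratios was below 1, and below that of unmarked bins, on 19 of 19 autosomes. Unmarked bins stood near 1, at 1.04 over 1421197 bins in ES cells and at 1.01 over 1930293 bins in liver. In bulk chromatin, fewer nucleosomes in every cell and none in part of the cells cannot be told apart.

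**Figure D1:**
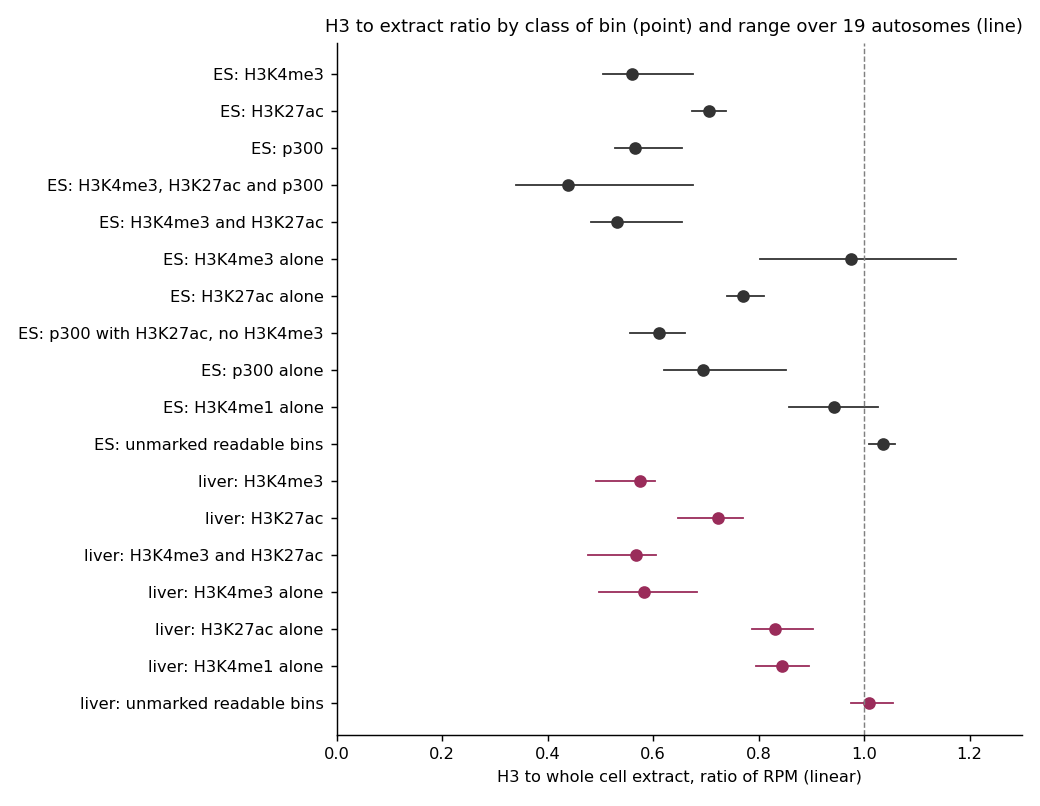
Points give the ratio of H3 to whole cell extract (RPM over RPM, linear axis) summed over the bins of each class, and lines its range over 19 autosomes, with ES cells in grey and liver in red. ES H3K4me3 bins sit at 0.560 and liver ones at 0.575, while unmarked bins sit at 1.04 and 1.01, and the ranges of ES bins with H3K4me3 alone (0.976) and with H3K4me1 alone (0.944) cross 1.

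The ratio has 2 sides, and the extract was above unmarked bins in each class. Set against unmarked bins of the same library, WCE was 1.71-fold at ES H3K4me3 bins, 1.84-fold at ES H3K27ac bins, 1.94-fold at ES p300 bins, 1.71-fold at liver H3K4me3 bins and 1.55-fold at liver H3K27ac bins. H3 was 0.926-fold at ES H3K4me3 bins and 0.970-fold at liver H3K4me3 bins, so it was below unmarked bins by far less than the extract was above them. H3 was above unmarked bins at H3K27ac bins, 1.26-fold in ES cells and 1.11-fold in liver, and 1.06-fold at ES p300 bins. The direction of these H3 levels turns with what they are set against, which is not so for WCE. Against all readable bins, H3 at ES p300 bins was 0.943-fold, and against unmarked bins with at least 4 reads in the MEF libraries, H3 at liver H3K27ac bins was 0.978-fold. Bins with over 10 times the mean of H3 or WCE, 255 in ES cells and 3241 in liver, also enter these sums: without them H3 at ES p300 bins was 0.979-fold and H3 at ES H3K4me3 bins 0.848-fold of unmarked bins. At the bins of each class, then, H3 was low against the extract in these libraries. Against these sets of unmarked or readable bins, H3 was below its level at H3K4me3 bins under each and above it at ES H3K27ac bins under each. At ES p300 and liver H3K27ac bins it lay on either side. This did not carry over to flanks as the reference, where liver H3 was 1.06-fold at liver H3K4me3 centres and ES H3 1.00-fold at ES H3K27ac centres.

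The combination of marks went with large differences in the ratio in ES cells. Bins with H3K4me3, H3K27ac and p300 together had a ratio of 0.438 (0.432 to 0.445), the lowest of the classes of combined marks, and 0.385 without the bins over 10 times the mean. Bins with both H3K4me3 and H3K27ac stood at 0.532, and bins with p300 and H3K27ac but no H3K4me3, the pattern of enhancers, at 0.612. The 1862 bins with p300 alone stood at 0.695 (0.664 to 0.728), where "alone" means that H3K4me3 and H3K27ac lie below 25% of their thresholds. For a histone mark, "alone" means that the other of H3K4me3 and H3K27ac lies below 25% of its threshold, whatever the p300 level. H3K27ac bins with neither p300 nor H3K4me3 stood at 0.863 (0.850 to 0.876), and H3K4me3 bins without p300 at 0.858 (0.835 to 0.882). At the 1200 ES bins with H3K4me3 alone the ratio was 0.976 (0.923 to 1.03), with 0.802 to 1.18 over the autosomes, so H3 and WCE were not told apart there. Their mean H3K4me3 level was 5.11 RPM per kb, just past the threshold of 4 RPM per kb. The ES H3K4me3 library that sets this class had 70.0% repeated positions and 2319684 distinct reads, against 13.2% and 7894000 in the liver one, and the part of this was not tested. H3K4me3 bins with p300, at 0.447, and H3K27ac bins with p300 were thus lower than bins of the same mark without it. They also held more of that mark, with means of 21.1 RPM per kb of H3K4me3 with p300 against 10.7 without, and of 6.64 RPM per kb of H3K27ac against 3.01, and the part of this was not tested.

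In liver, which has no p300 library in the series as used here, the same split by promoter and enhancer marks gave 0.567 at bins with both H3K4me3 and H3K27ac. The 3203 bins with H3K4me3 alone stood at 0.582 (0.557 to 0.609), close to the bins with both, whereas in ES cells the bins with H3K4me3 alone stood apart from those with both. The 80447 liver bins with H3K27ac alone stood at 0.832, against 0.771 at 100932 ES bins, which hold a mean of 2.41 RPM per kb of p300. Bins with H3K4me1 alone, at 2 RPM per kb or more, stood at 0.944 (0.929 to 0.959) in ES cells and at 0.844 (0.834 to 0.855) in liver.

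The ratio was lower the higher the mark. ES H3K4me3 bins of 4 to 8 RPM per kb stood at 0.662, those of 8 to 16 at 0.565, those of 16 to 32 at 0.477 and those of 32 and above at 0.436. Liver H3K4me3 bins ran through 0.708, 0.629, 0.529 and 0.480 over the same steps. ES H3K27ac bins of 2 to 4, 4 to 8, 8 to 16 and at least 16 RPM per kb ran through 0.789, 0.695, 0.588 and 0.452, and liver ones through 0.825, 0.725, 0.630 and 0.612. The thresholds cut a gradual relation: just outside and just inside them the ratio was 0.788 and 0.697 for ES H3K4me3, 0.839 and 0.808 for ES H3K27ac, 0.683 and 0.613 for p300, 0.737 and 0.741 for liver H3K4me3, and 0.896 and 0.854 for liver H3K27ac. ES p300 bins ran less evenly, through 0.584, 0.549, 0.551 and 0.393 over 3 to 6, 6 to 12, 12 to 24 and at least 24 RPM per kb. Without bins over 10 times the mean these 4 values were 0.579, 0.511, 0.476 and 0.361.

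Pooled over all H3K4me3 bins the 2 sides of the ratio were much alike in both cell types, but they moved differently with the level of the mark. In ES cells the extract was nearly flat over the 4 H3K4me3 steps, at 1.77, 1.77, 1.58 and 1.68-fold of unmarked bins, while H3 stood at 1.14, 0.964, 0.729 and 0.709-fold. In liver H3 moved little over the same steps, at 1.04, 0.944, 0.878 and 0.986-fold, while the extract stood at 1.48, 1.52, 1.68 and 2.08-fold. For H3K27ac the contrast lay in the highest step. Over its 4 steps ES H3 stood at 1.35, 1.26, 1.10 and 0.881-fold, with the extract at 1.77, 1.88, 1.93 and 2.01-fold. Liver H3 stood at 1.14, 1.07, 1.03 and 1.24-fold, with the extract at 1.39, 1.49, 1.65 and 2.05-fold. Below 16 RPM per kb, H3 was thus lower at each higher step in both cell types. The extract was higher at each higher step in both. At the most acetylated bins, H3 was thus below unmarked bins in the ES library and above them in the liver library. Leaving out bins over 10 times the mean kept both sides, with H3 at 0.837-fold in ES cells and 1.22-fold in liver. The share of repeated positions in WCE and the depth also differ between the 2 cell types, and their part in this was not tested.

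**Figure D2:**
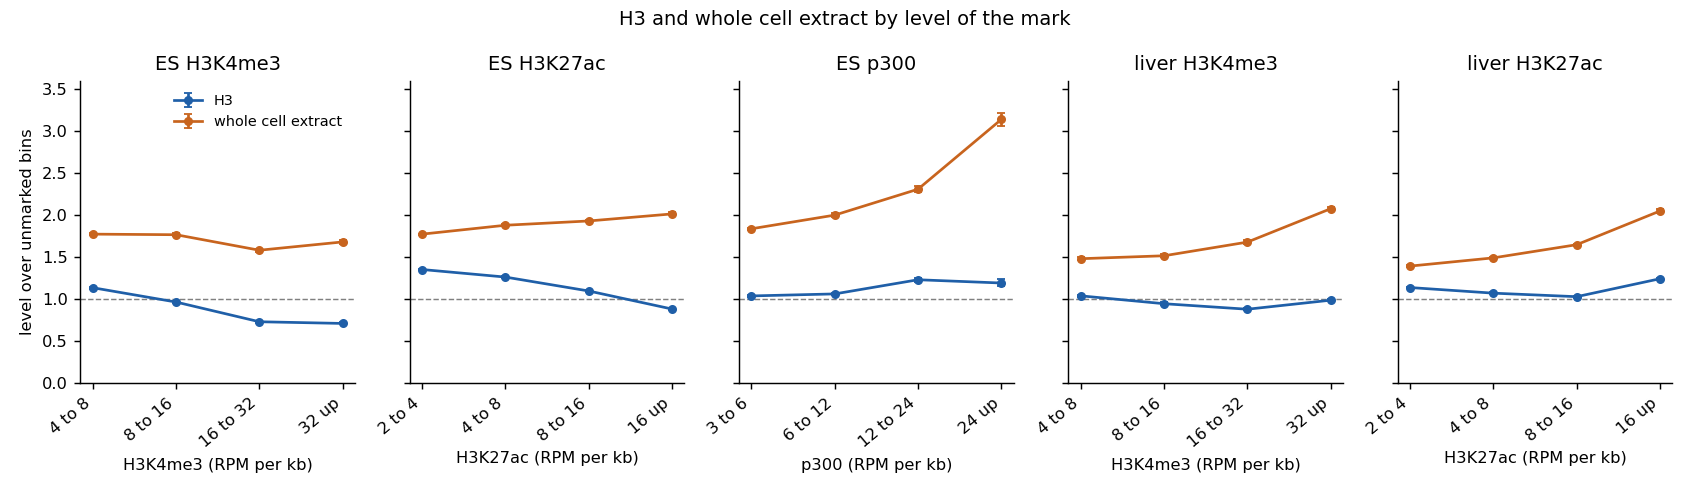
H3 (blue) and whole cell extract (orange), each as a multiple of its own level in unmarked bins (linear axis), are plotted by the level of the mark in steps of RPM per kb, with counting intervals as bars. The ES H3K4me3 panel has a flat extract line and an H3 line at 1.14 in the lowest step and 0.709 in the highest, and the liver H3K4me3 panel has an extract line at 1.48 and 2.08 in the same steps.

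The low ratio was centred on the mark in each of the 5 classes, and an H3 level below its flanks was seen in part of them. Bins up to 1000 bp apart were joined into regions, which were centred on their highest bin. Around 17469 ES H3K4me3 regions, H3 stood at 0.395 RPM per kb in the centre against 0.751 RPM per kb of WCE, a ratio of 0.526. The ratio was 0.734 at 500 to 1000 bp from the centre and 0.902 at 4000 to 5000 bp. Relative to those flanks, H3 in the centre was 0.715-fold and WCE 1.23-fold. Around 32726 ES p300 regions the ratio was 0.544 in the centre, 0.811 at 500 to 1000 bp and 0.888 at 4000 to 5000 bp, with H3 at 0.820-fold and WCE at 1.34-fold of the flanks in the centre. ES H3 therefore had a dip at these H3K4me3 and p300 centres. There was next to none at 47304 ES H3K27ac regions, where H3 in the centre was 1.00-fold of the flanks, WCE 1.33-fold and the ratio 0.672. H3 was 0.994-fold of its flanks at 3125 regions with H3K4me3 in ES cells only, and 0.960-fold at 6686 p300 regions away from H3K4me3.

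In liver the centre of the same kind of region had a peak of extract in place of a dip of H3. Around 18695 liver H3K4me3 regions the ratio was 0.535 in the centre, 0.707 at 500 to 1000 bp and 0.915 at 4000 to 5000 bp, but H3 in the centre was 1.06-fold and WCE 1.82-fold of the flanks. At 500 to 1000 bp liver H3 was 0.912-fold of the flanks, so the liver H3 line has shallow troughs on both sides of its centre. Read at the ES H3K4me3 regions, liver H3 was 0.989-fold and liver WCE 1.73-fold in the centre. The H3 library of MEFs, for which no WCE library was used here, was 2.06-fold of its flanks at the centres of ES H3K4me3 regions, 1.83-fold at liver H3K4me3 regions and 1.27-fold at ES p300 regions. At the ES H3K4me3 regions, ES H3 was thus below its flanks and MEF H3 above them, while liver H3 was close to its flanks. Centres of a mark are also places where reads can be placed. The part of this in levels against flanks was not tested, nor was that of base composition, for which no genome of this build was at hand.

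**Figure D3:**
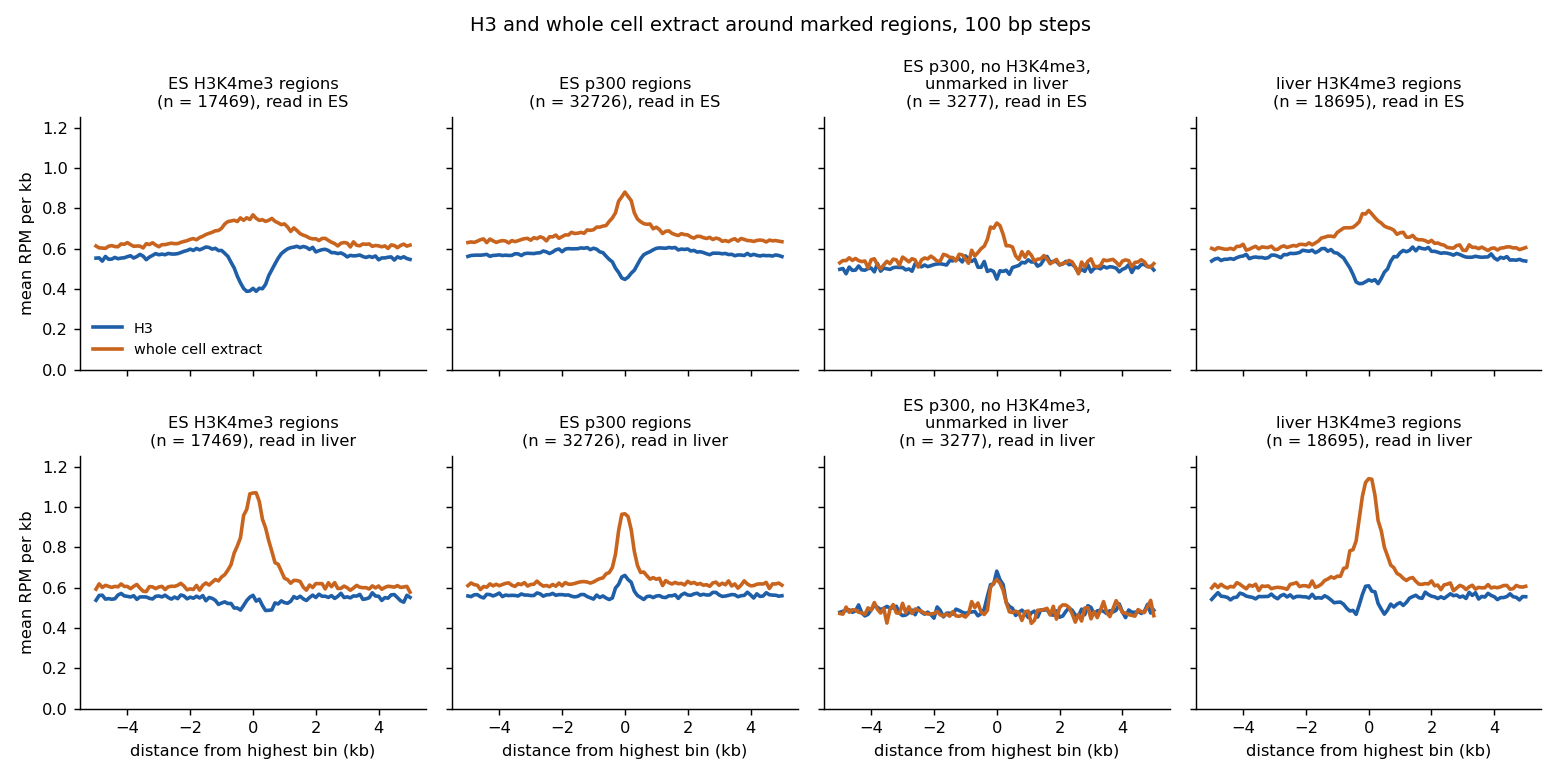
Mean level of H3 (blue) and whole cell extract (orange) in RPM per kb (linear axis) is plotted by distance in kb from the highest bin of a region, in 100 bp steps, with ES libraries in the upper row and liver libraries in the lower. ES H3 dips at the ES H3K4me3 and p300 centres (0.715-fold and 0.820-fold of the flanks), liver extract peaks at the liver H3K4me3 centres (1.82-fold), and at ES p300 regions unmarked in liver the liver lines lie on each other.

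Bins with a mark in 1 cell type gave the closest comparison, since the same bins were read in both. Sets named by H3K4me3 or H3K27ac alone are free in the other marks. Bins with H3K4me3 in liver only held means of 1.51 RPM per kb of ES H3K27ac and 1.21 of ES p300, against 0.128 and 0.274 in unmarked ES bins. Those with H3K4me3 in ES cells only held 0.473 of liver H3K27ac, against 0.0834 in unmarked liver bins. The ratio was lower in the cell type that carried the mark in each of 6 sets. The sets share bins and are not separate checks. All bins with liver H3K27ac, no H3K4me3 and no mark in ES cells also count among those with H3K27ac in liver only. At 6568 bins with H3K4me3 in ES cells only (in liver below 25% of the threshold) it was 0.670 (0.656 to 0.684) in ES cells and 0.787 (0.765 to 0.810) in liver. At 19005 bins with H3K4me3 in liver only it was 0.728 (0.716 to 0.741) in liver and 0.827 (0.816 to 0.837) in ES cells. For H3K27ac in ES cells only, over 80739 bins, it was 0.741 in ES cells and 0.845 in liver, and for H3K27ac in liver only, over 64122 bins, 0.845 in liver and 0.943 in ES cells. Bins marked in both were lowest in both, at 0.515 in ES cells and 0.484 in liver for 33734 H3K4me3 bins, and at 0.627 and 0.593 for 54740 H3K27ac bins. They also held more of the mark. Mean H3K4me3 was 22.6 RPM per kb in ES cells and 36.0 in liver, against 7.05 and 12.4 at bins with it in that cell type only. Mean H3K27ac was 9.83 and 11.4, against 4.75 and 6.32, and the part of this was not tested. Bins marked in 1 cell type thus had, in the cells without the mark, ratios above those of the marked cells and below those of unmarked bins.

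ES p300 bins with no H3K4me3 that were unmarked in liver showed the widest gap of these sets. Over 17510 such bins the ratio was 0.648 (0.640 to 0.657) in ES cells and 0.945 (0.929 to 0.962) in liver. In ES cells H3 was 1.07-fold and WCE 1.71-fold of unmarked bins, and in liver H3 was 1.19-fold and WCE 1.28-fold. Around the centres of the 3277 regions away from H3K4me3 and unmarked in liver, the ratio was 0.684 (0.662 to 0.706) in ES cells and 1.03 (0.987 to 1.08) in liver. WCE in the centre was 1.32-fold of its flanks in ES cells and 1.28-fold in liver, while H3 was 0.958-fold in ES cells and 1.31-fold in liver. At these enhancer-like centres the extracts of both cell types thus stood above their flanks by similar amounts, while H3 was lower in ES cells than in liver. MEF H3 was 1.17-fold of its flanks there, nearer to liver H3. The converse set, 29588 bins with liver H3K27ac, no H3K4me3 and no mark in ES cells, stood at 0.877 (0.864 to 0.890) in liver and 0.970 (0.960 to 0.981) in ES cells. In it H3 was 0.927-fold of unmarked bins in liver and 1.11-fold in ES cells, with WCE at 1.07-fold in liver and 1.18-fold in ES cells. At the centres of 1090 such regions the ratio was 0.914 (0.8445 to 0.989) in liver and 0.969 (0.914 to 1.03) in ES cells. These intervals overlap. There H3 was 1.35-fold of its flanks in liver and 1.26-fold in ES cells, with WCE at 1.47-fold and 1.35-fold. Which cell type had the lower H3 in this set thus turned with the reference.

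**Figure D4:**
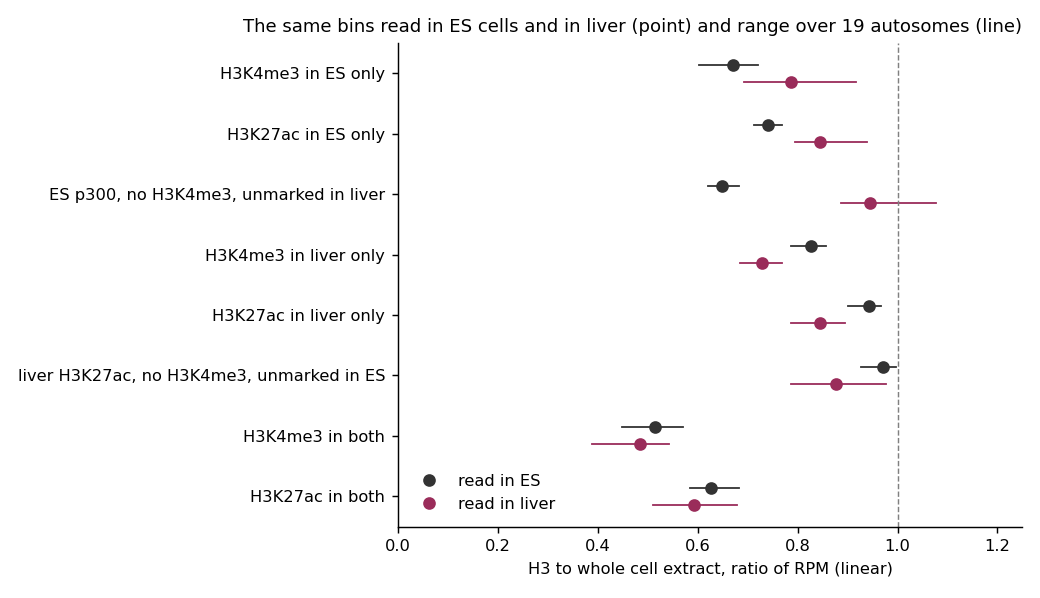
Each set of bins is plotted as read in ES cells (grey) and in liver (red), as the ratio of H3 to whole cell extract (RPM over RPM, linear axis) with its range over 19 autosomes as a line. In the 6 upper sets the point of the cell type that carries the mark lies to the left, with the widest gap at ES p300 bins unmarked in liver (0.648 in ES cells and 0.945 in liver).

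Few bins could be read one by one. Of ES H3K4me3 bins 5.72%, and of liver ones 0.794%, held at least 10 reads of H3 and WCE together. Among these, H3 was at or below a ratio of 0.5 in 962 of 2546 ES H3K4me3 bins (37.8%), against 21.7% of all 128435 ES bins of that depth. It was at or below 0.5 in 30.1% of ES H3K27ac bins and 41.3% of p300 bins. In liver 260 of 495 H3K4me3 bins (52.5%) and 41.4% of H3K27ac bins were at or below 0.5, against 29.0% of all 8918 bins. The opposite, H3 at least 2 times WCE, was found in 4.24% of ES H3K4me3 bins and 2.92% of p300 bins, against 10.8% of all ES bins, and in 5.86% of liver H3K4me3 bins, against 11.1% of all liver bins. The classes were thus above the background in the first count and below it in the second. The first gap was not kept when ES reads were thinned. With ES reads thinned to the number in liver, 16.0% of 238 H3K4me3 bins were at or below 0.5, against 16.3% of all bins of at least 10 reads, so no difference was seen there. Liver, with that number of reads, had 52.5% against 29.0%, and the cause was not tested. Most bins with low H3 lay outside these classes: 21.5% of the ES bins at or below 0.5 lay in a class, against 15.5% of the ES bins read, and 22.4% in liver, again against 15.5%.

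Joined regions varied around their class. Of 17470 ES H3K4me3 regions, 313 had at least 40 reads of H3 and WCE together, and their median ratio was 0.587, with 296 below 1. The interval lay below 1 in 139 of them and above 1 in 0. Regions of that depth were 1.79% of the class. No unmarked regions of like size and depth were read, so the counts of regions have no background share beside them. They describe the regions of that depth only. Of 744 ES p300 regions of that depth the median was 0.593, and 692 were below 1. The median was 0.741 over 6935 ES H3K27ac regions, 0.741 over 2499 liver H3K27ac regions and 0.637 over 255 liver H3K4me3 regions, of which 10 had an interval above 1. Regions of a class differed by somewhat more than counting error, with a chi-square per degree of freedom of 1.27 to 1.35 over the 5 classes once regions with a bin over 10 times the mean were left out. Isolated bins of H3K4me3 and H3K27ac were less low than regions of 1000 to 1500 bp, and those of p300 were nearly as low. ES H3K4me3 regions of 500 bp stood at 0.633 and those of 1000 to 1500 bp at 0.526, liver ones at 0.663 and 0.560, and liver H3K27ac ones at 0.848 and 0.689. ES H3K27ac regions of 500 bp stood at 0.770 and those of 1000 to 1500 bp at 0.661, but wider ones were less low, at 0.738 from 4000 bp. ES p300 regions stood at 0.575 at 500 bp, 0.540 at 1000 to 1500 bp, 0.587 at 2000 to 3500 bp and 0.575 from 4000 bp.

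The regions named here are the extremes by the bounds of their interval, chosen by these values, so they are a description. Their positions lie within the chromosome lengths of the mouse assembly mm8, the build is not given in the sources used here, and no annotation of it was at hand, so no gene is attached. A region of 6000 bp, chr17:39451001-39457000, was among the lowest in each class and cell type. It held 394 H3 reads against 1367 WCE reads in ES cells, a ratio of 0.214 (0.191 to 0.239), and 216 H3 reads against 1240 WCE reads in liver, a ratio of 0.160 (0.138 to 0.185). Its WCE level was 32.8 RPM per kb in ES cells and 52.6 in liver, against 0.468 and 0.549 in unmarked bins, and MEF H3 held 1477 reads in it. H3 there, at 7.00 RPM per kb in ES cells and 8.40 in liver, was itself far above unmarked bins, and WCE was higher still. In liver the region held 23.5 RPM per kb of H3K4me3 and 4.59 of H3K27ac, both below its WCE level. In ES cells it held 64.0 of H3K4me3, 49.1 of H3K27ac and 90.9 of p300. The thresholds of the classes take no account of WCE, and the part of this in its place in the liver classes was not tested.

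Other extremes had few or no H3 reads and were of ordinary depth. The region chr1:88189501-88191500, with liver H3K4me3 and H3K27ac, held 0 H3 reads against 16 WCE reads in liver, and 5 against 9 in ES cells. The interval of the ratio in liver was 0 to 0.238. The region chr13:76483501-76485500 held 0 H3 reads against 13 WCE reads in liver, and 6 against 16 in ES cells. ES cells had 4 H3 reads against 32 WCE reads at chr6:30122001-30126500, a ratio of 0.0926 (0.0238 to 0.261), where liver had 9 against 15. The region chr13:76483501-76485500 was marked by H3K4me3 and H3K27ac in both cell types. The region chr6:30122001-30126500 held 28.8 RPM per kb of H3K4me3 and 29.4 of H3K27ac in ES cells, but 3.72 and 0.176 in liver. H3 was the lower library in both cell types at each of them.

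At some of these extremes H3 lay below WCE in 1 cell type only. At chr11:32041001-32042500, a region of ES p300 and H3K27ac with an H3K4me3 level of 0.575 RPM per kb, ES cells held 0 H3 reads against 15 WCE reads, and liver held 7 against 6. The interval of the ratio in ES cells was 0 to 0.207. At chr7:78786501-78788000, with 13.8 RPM per kb of H3K4me3 in liver and 0.575 in ES cells, liver held 0 H3 reads against 15 WCE reads, and ES cells held 7 against 3. H3K27ac in this region was 9.24 RPM per kb in liver and 1.76 in ES cells, near the threshold of 2. The interval of the ratio in liver was 0 to 0.256. Such counts are small, and these places were picked for them, so they cannot show a change between cell types.

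At the other end, few regions of at least 40 reads had an interval of the ratio above 1, from 0 to 3.92% by class, again with no background share. At chr11:4166501-4169500, with H3K4me3 and H3K27ac in both cell types, liver held 72 H3 reads against 13 WCE reads, a ratio of 5.08 (2.79 to 10.0), whereas ES cells held 32 H3 reads against 61 WCE reads. At chr9:3035501-3036500, liver held 61 H3 reads against 19 WCE reads, a ratio of 2.95 (1.74 to 5.22). ES cells held 91 against 70 there, or 9.70 RPM per kb of H3 and 10.1 of WCE, so H3 was not above WCE. These levels were far above unmarked bins, with liver H3 at 14.2 RPM per kb against 0.555. In ES cells the highest H3K4me3 region by this rule, chr7:140861001-140862000, held 13 H3 reads against 1 WCE read, with an interval of 1.45 to 409 for the ratio. These bounds show how little the reads of a single region fix.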

How the data were processed

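The authors deposited, per the file headers and values, 1 file per library that lists aligned reads as signed positions under chromosome names, in sections headed U0 and U1, the second holding 4.72 to 8.57% of a library. These values are other than counts or a normalised signal: the authors had neither removed repeats nor scaled them. Neither aligner nor genome build is named in the labels. Per the labels' protocols, chromatin was sonicated to about 500 bp, and after 18 cycles of PCR a gel slice of 200 to 350 bp was kept.

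Of the 20 libraries, 17 were read. Each position and strand was counted once, reads were moved 100 bp toward the fragment centre, and bins were scaled to RPM of chromosomes 1 to 19, where the mark and MEF libraries hold 2319684 to 14280972 distinct reads. ES H3K27ac and p300 levels are means of 2 libraries, and ES H3K4me1 levels are means of 3. Of all bins, 11.5% held no read in any library. The label of 1 p300 library names p301 in 1 field. Ratios carry exact Clopper-Pearson intervals for counting error (Python 3, SciPy), which were tested on simulated data. PCR reads are not independent molecules, so intervals cover counting error only. The bins, classes and lists were chosen with earlier results of these data known. The regions named are, per class, the 5 with the lowest upper bound and the 3 with the highest lower bound of the ratio, and the text gives some of them. The gene promoters planned as markers were not read, since no annotation of the build was at hand, so the labelled cell types were not checked against marker genes. Alternatives were bin width, thresholds, repeats, read shift, scaling, section U0 alone, bins over 10 times the mean, each ES H3K27ac and p300 library left out, and, added after seeing the data, other references for the levels.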

Additional observations from a re-analysis of the deposited data

Results flagged for a closer look

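In 4 cases H3 lay on opposite sides of unmarked bins in ES cells and in liver, by intervals for counting error. Each cell type has 1 H3 library, and the difference was not tested. Against all readable bins, 2 of the 4 cases lie on 1 side. At bins with at least 16 RPM per kb of H3K27ac, H3 was 0.881-fold of unmarked bins in ES cells and 1.24-fold in liver (0.785 and 1.20-fold of all readable bins). At bins with H3K27ac in liver only, it was 0.989-fold in liver and 1.16-fold in ES cells (0.955 and 1.03-fold of all readable bins). At bins with liver H3K27ac, no H3K4me3 and no mark in ES cells, it was 0.927-fold in liver and 1.11-fold in ES cells, but 0.896 and 0.984-fold of all readable bins, both below 1. At bins with H3K4me3 alone, which are different bins in each cell type, it was 1.09-fold in ES cells and 0.839-fold in liver, but 0.971 and 0.811-fold of all readable bins, both below 1. The bins of these cases were not held to the MEF minimum that unmarked and readable bins meet. It was met by 98.9% of the bins of the first case in ES cells and 96.1% in liver. It was met by 80.6% of those with H3K27ac in liver only and 76.1% of those also without H3K4me3 and ES marks. For H3K4me3 alone it was met by 73.25% in ES cells and 98.1% in liver, and the part of this was not tested.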

How the results depend on the processing

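All 39 alternative values of the ratio of H3 to extract lay below 1, between 0.499 and 0.734, and 10 lay within the counting interval of the value reported. In bins of 1000 bp the ratio was 0.583 at ES H3K4me3, 0.711 at ES H3K27ac, 0.602 at ES p300, 0.585 at liver H3K4me3 and 0.719 at liver H3K27ac bins. With thresholds 2 times as high the ratio was 0.499 at ES H3K4me3, 0.621 at ES H3K27ac, 0.532 at ES p300, 0.531 at liver H3K4me3 and 0.664 at liver H3K27ac bins. Scaled to unmarked bins the ratio was 0.541 at ES H3K4me3, 0.682 at ES H3K27ac, 0.547 at ES p300, 0.569 at liver H3K4me3 and 0.716 at liver H3K27ac bins. With reads of the U0 section only the ratio was 0.546 at ES H3K4me3, 0.697 at ES H3K27ac and 0.554 at ES p300 bins. Without bins over 10 times the mean the ratio was 0.544 at ES H3K4me3, 0.551 at ES p300, 0.585 at liver H3K4me3 and 0.734 at liver H3K27ac bins. With repeated positions kept the ratio was 0.572 at ES H3K4me3, 0.572 at ES p300 and 0.716 at liver H3K27ac bins. With reads not moved the ratio was 0.573 at ES p300 bins. Leaving out either library of the mark gave 0.708 to 0.724 at ES H3K27ac bins and 0.575 to 0.590 at ES p300 bins. H3 levels against all readable bins were 0.825-fold at ES H3K4me3, 1.12-fold at ES H3K27ac, 0.943-fold at ES p300, 0.938-fold at liver H3K4me3 and 1.07-fold at liver H3K27ac bins. H3 levels against unmarked bins with at least 4 MEF reads were 0.848-fold at ES H3K4me3, 1.15-fold at ES H3K27ac, 0.969-fold at ES p300, 0.853-fold at liver H3K4me3 and 0.978-fold at liver H3K27ac bins. H3 levels without bins over 10 times the mean were 0.848-fold at ES H3K4me3, 1.24-fold at ES H3K27ac, 0.979-fold at ES p300, 0.949-fold at liver H3K4me3 and 1.10-fold at liver H3K27ac bins. WCE levels against all readable bins were 1.40-fold at ES H3K4me3, 1.50-fold at ES H3K27ac, 1.58-fold at ES p300, 1.58-fold at liver H3K4me3 and 1.44-fold at liver H3K27ac bins. WCE levels against unmarked bins with at least 4 MEF reads were 1.51-fold at ES H3K4me3, 1.63-fold at ES H3K27ac, 1.71-fold at ES p300, 1.45-fold at liver H3K4me3 and 1.32-fold at liver H3K27ac bins. WCE levels without bins over 10 times the mean were 1.61-fold at ES H3K4me3, 1.82-fold at ES H3K27ac, 1.84-fold at ES p300, 1.64-fold at liver H3K4me3 and 1.52-fold at liver H3K27ac bins. H3 thus changed direction at ES p300 bins under these 3 references and at liver H3K27ac bins under the second, and the cause was not tested, while WCE stayed above 1 under each. The share of H3K4me3 bins at or below 0.5 was 11.7% in ES cells and 25% in liver at a minimum of 20 reads (all bins 6.90% and 14.1%), 42.2% and 47.1% in bins of 1000 bp (all bins 16.9% and 20.8%), and 16.0% in ES cells thinned to the reads of liver; the cause was not tested. No paired analysis was possible because each H3 and WCE group has 1 library, so the compared groups share fewer than 2 replicate numbers. Depth limits statements on single bins and regions, and 1 library a side limits all of them.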
